A study of Mus musculus with 18 samples.

Results

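The interferon-inducible GTPases followed here are 4 guanylate-binding proteins (Gbp2, Gbp3, Gbp5 and Gbp7) and 4 immunity-related GTPases (Igtp, Irgm1, Irgm2 and Iigp1). They were read in mouse mammary tumours from an Affymetrix table of log2 expression values. A gene was taken where at least 1 probe set named it alone, and the brightest such probe set stood for it. This gave 5 of the 8 genes (Gbp3, Gbp5, Gbp7, Irgm1 and Iigp1) among 19938 genes in all. Gbp2 shares its probe sets with Gbp2b, and Igtp and Irgm2 share theirs with each other, so these 3 are not analysed here by level. Genes of these families resemble one another, and whether probes of the 5 measured genes also read a relative was not tested.

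Both families guard the inside of the cell. Guanylate-binding proteins are large, dynamin-like GTPases that coat the vacuoles of parasites and bacteria, and immunity-related GTPases are smaller proteins that mark or disrupt the same vacuoles. Interferon-gamma, made mainly by T and NK cells, is their main inducer. Its receptor signals to the GAS element and raises Irf1, and Irf1 in turn binds the interferon-stimulated response element (ISRE). Type I interferons act mostly through the ISRE, so many genes answer to both kinds of interferon.

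All tumours came from mice that carry the neu (ERBB2) oncogene under the MMTV promoter, which is active mainly in mammary epithelium. The transgenic line is FVB/N and the Snai2 line B6;129S1, and the labels do not give the final background of each tumour's host. KO mice also carry the Snai2tm2Grid deletion, which the labels do not limit to a cell type, so that host cells of the tumour lack Snai2 too; WT mice have intact Snai2. Parity and metastasis (met, nonmet) gave 6 groups: KO parous met (3 arrays), KO parous nonmet (3), KO nulliparous met (1), KO nulliparous nonmet (3), WT parous met (4) and WT nulliparous met (4). The labels used here give no age, and there was no WT nonmet group, so among these tumours genotype and metastasis are partly confounded.

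Replicates 2 and 3 of KO parous met were nearly identical: the SD of their difference was 0.102 log2 over 10252 genes, against 0.285 for the next closest of 153 pairs. They were averaged and counted as 1 sample, which left 17. Snai2 averaged 6.38 to 6.59 log2 in the KO groups, against 6.83 ± 0.19 and 6.86 ± 0.17 (SD, n = 4 each) in WT parous met and WT nulliparous met (where its probes lie relative to the deleted part was not checked). Its KO minus WT differences of -0.23, -0.27 and -0.33 in the 3 comparisons did not pass (limma adjusted p 0.929, 0.46 and 0.851), and the groups overlapped in 2 of them. Erbb2 (group means 12.67 to 12.9 log2) and the luminal epithelial genes Krt8, Krt18 and Epcam were strongly expressed in every group. One library, KO parous nonmet 2, stood apart among its own group. It lay above both other KO parous nonmet tumours for 5545 of 19938 genes (27.8%), but for 12 of 12 leukocyte genes, 16 of 17 macrophage markers and 10 of 10 endothelial markers. The same held for 9 of 10 fibroblast markers and 30 of 33 type I interferon genes. In whole tumours, fewer cells of a type and less RNA per cell cannot be told apart.

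The regulatory sequence of the genes is shown first, because the 2 elements named above are the routes by which interferons are known to reach them. Whether these elements acted in these tumours was not tested. RefSeq promoters (GRCm38.p6, 250 bases before to 50 after the annotated start) were given for 7 of the 8 genes. The letters TTCNNNGAA (GAS, which reads the same on both strands) and GAAANNGAAA or TTTCNNTTTC (the ISRE core on either strand) were searched; capitals mark each match.
Gbp7, chr3:142530086-142530385, plus strand: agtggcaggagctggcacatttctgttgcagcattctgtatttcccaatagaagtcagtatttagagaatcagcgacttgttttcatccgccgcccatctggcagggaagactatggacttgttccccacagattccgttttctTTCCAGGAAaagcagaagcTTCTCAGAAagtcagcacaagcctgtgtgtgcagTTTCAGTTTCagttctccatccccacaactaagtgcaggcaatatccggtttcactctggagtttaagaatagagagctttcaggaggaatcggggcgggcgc
Gbp5, chr3:142496684-142496983, plus strand: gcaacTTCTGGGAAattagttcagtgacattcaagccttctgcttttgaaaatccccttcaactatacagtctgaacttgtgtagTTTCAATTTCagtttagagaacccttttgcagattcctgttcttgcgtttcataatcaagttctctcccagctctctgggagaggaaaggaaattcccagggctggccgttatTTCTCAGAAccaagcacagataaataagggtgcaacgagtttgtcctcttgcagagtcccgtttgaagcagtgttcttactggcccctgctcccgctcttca
Gbp3, chr3:142559794-142560093, plus strand: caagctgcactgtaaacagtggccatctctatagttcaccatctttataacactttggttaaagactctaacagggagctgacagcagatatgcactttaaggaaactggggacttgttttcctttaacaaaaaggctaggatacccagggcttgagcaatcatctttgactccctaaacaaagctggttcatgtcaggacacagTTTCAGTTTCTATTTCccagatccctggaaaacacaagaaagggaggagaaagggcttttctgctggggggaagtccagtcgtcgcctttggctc
Irgm1, chr11:48871371-48871670, minus strand: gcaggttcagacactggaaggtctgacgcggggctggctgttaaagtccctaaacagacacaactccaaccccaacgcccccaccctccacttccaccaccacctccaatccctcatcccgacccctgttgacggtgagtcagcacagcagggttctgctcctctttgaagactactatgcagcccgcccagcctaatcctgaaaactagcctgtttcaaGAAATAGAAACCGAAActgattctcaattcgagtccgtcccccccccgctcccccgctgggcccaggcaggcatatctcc

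Each of these 4 promoters held an ISRE core, and those of Gbp7 and Gbp5 also held GAS letters. In Gbp7, GAS matches began at positions -106 and -87 relative to the start and the ISRE core at -53. In Gbp5, GAS matches began at -245 and -52, with the ISRE core at -165. Gbp3 and Irgm1 each had 2 overlapping ISRE cores and no GAS letters in this window; a second annotated start of Gbp3 had neither. By gene, 7 of 7 had an ISRE core in at least 1 promoter, against 1079 of 27025 genes (4.0%), and 4 of 7 had GAS letters, against 2582 (9.6%). By promoter, 1131 of all 32851 (3.4%) held an ISRE core and 2726 (8.3%) held GAS letters, and both lay together in 149 (0.45%). The type I interferon list described below names 36 genes, 33 of them measured. Of the 36, 24 had a promoter given, of which 13 held an ISRE core and 5 held GAS letters. A match describes the letters and does not show that a factor binds there.

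Igtp and Irgm2, whose proteins regulate the effector GTPases from host membranes, carry both elements 2 bases apart. The stretches are printed because they place a GAS and an ISRE core side by side.
Igtp, chr11:58199511-58199531, plus strand: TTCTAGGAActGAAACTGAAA
Irgm2, chr11:58214902-58214922, plus strand: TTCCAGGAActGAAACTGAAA
In Igtp the GAS began at -45 and the ISRE core at -34 relative to the start, and in Irgm2 they began at -75 and -64.

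In WT tumours with metastasis, parous mice had lower signal of all 5 measured GTPases than nulliparous mice, and for none of the 5 did the groups overlap. Only Gbp7 passed the test across all genes (limma's moderated test with Benjamini-Hochberg adjustment over 19938 genes, threshold 0.05). Genes called lower made up 1.86% of all genes in this comparison, and genes whose parous values all lay below the nulliparous ones made up 7.63%. The differences ran from -2.60 (Iigp1) to -1.15 (Gbp5) on the log2 scale with a median of -1.31, against a median of -0.01 over all genes.

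Gbp7 brings parts of the NADPH oxidase and autophagy machinery to engulfed bacteria in mouse macrophages. It read 9.53, 9.64, 9.40 and 9.78 log2 in the 4 WT parous met tumours, against 11.26, 10.26, 11.32 and 10.77 log2 in the 4 WT nulliparous met tumours. The parous tumours were tightly grouped and every one lay below the lowest nulliparous tumour. Gbp7 fell by 1.31 on the log2 scale (SE 0.30, 2.49-fold lower, limma adjusted p = 0.0381), and the interval of 95% ran from -1.95 to -0.67. The call rests on few tumours: it was lost when any WT tumour other than WT nulliparous met 2 was left out, with adjusted p of 0.0705 to 0.116.

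Gbp3, which is recruited to Toxoplasma vacuoles in mouse cells, read 9.20, 9.48, 8.51 and 9.21 log2 in WT parous met tumours, against 11.09, 10.14, 10.91 and 10.65 log2 in WT nulliparous met tumours. Its log2 difference was -1.60 (SE 0.42, limma adjusted p = 0.0649). Parous tumours lay lower without overlap, and the value missed the threshold. Without KO parous nonmet 2, the library that stood apart, Gbp3 passed (limma adjusted p = 0.0129) and the number of the 5 genes passing was 3, not 1. The number of all genes passing rose as well, from 478 in the main fit to 770. KO parous nonmet 2 is in neither compared group, so the Gbp3 difference stayed at -1.60 and only the variance shared across groups changed.

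Gbp5 has been linked to assembly of the NLRP3 inflammasome in mouse macrophages. Its signal was low, at 6.01, 6.04, 5.55 and 6.16 log2 in WT parous met tumours, against 6.91, 6.18, 7.92 and 7.33 log2 in WT nulliparous met tumours. The highest parous tumour (6.16) nearly met the lowest nulliparous one (6.18), so the groups were separated by a narrow gap. The log2 difference was -1.15 (SE 0.35, limma adjusted p = 0.115). Whole-array medians lay at 7.6 to 7.67 log2, and RMA compresses differences at signals as low as those of Gbp5.

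Irgm1, a regulator that sits on host membranes and holds the effector GTPases in check, read 10.60, 10.22, 9.87 and 10.33 log2 in WT parous met tumours, against 11.77, 10.98, 11.84 and 11.19 log2 in WT nulliparous met tumours. Its log2 difference was -1.19 (SE 0.34, limma adjusted p = 0.0901). Iigp1 (Irga6) is an effector that assembles on the parasite vacuole in mouse cells. It read 10.48, 10.28, 7.71 and 8.41 log2 in WT parous met tumours, against 12.47, 11.31, 11.92 and 11.56 log2 in WT nulliparous met tumours. The parous tumours fell into a pair near 10 log2 and a pair near 8 log2, and both pairs lay below every nulliparous tumour.

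Iigp1 had the widest difference of the family, -2.60 on the log2 scale (SE 0.77, limma adjusted p = 0.0995). Only 8 of 19938 genes had a lower value in this comparison. Its SD within groups was 1.18 log2, against 0.45 (Gbp7) to 0.64 (Gbp3) for the others, so the gene with the widest difference was also the one with the widest spread among tumours of a group.

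**Figure D1:**
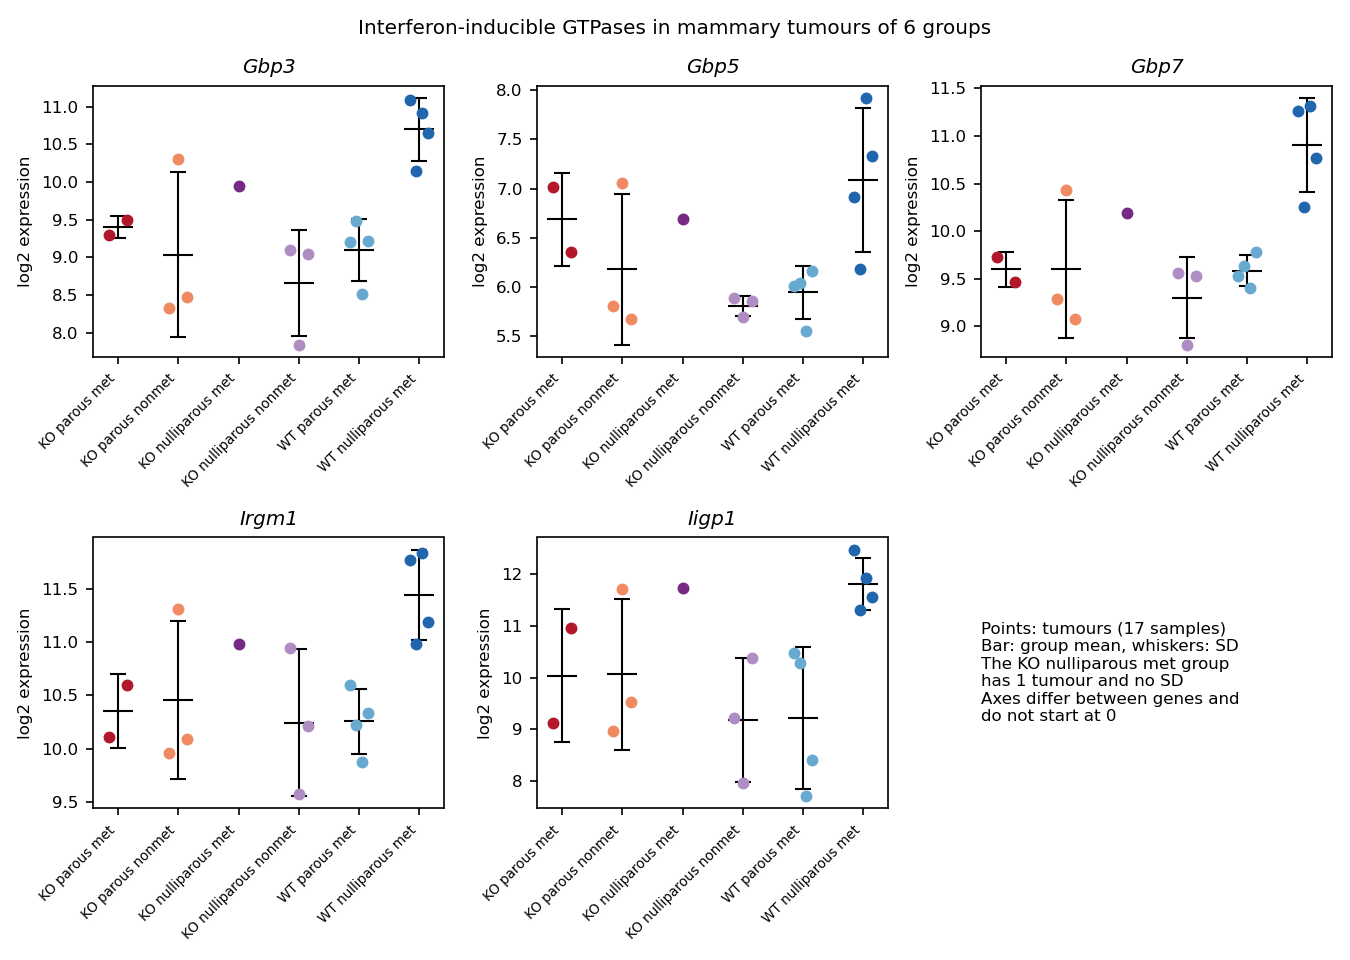
Log2 expression (vertical axes) of the 5 measured GTPases in each tumour (points) of the 6 groups, with group mean and SD (bars) where a group has over 1 sample. WT nulliparous met is the highest group in each panel, and the lone KO nulliparous met tumour comes next.

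In KO tumours without metastasis no GTPase showed a parity difference past the threshold. Gbp3 read 8.33, 10.30 and 8.47 log2 in KO parous nonmet tumours, against 9.09, 7.84 and 9.04 log2 in KO nulliparous nonmet tumours. Gbp7 read 9.29, 10.43 and 9.08 log2 in the parous tumours, against 9.56, 8.81 and 9.53 log2 in the nulliparous ones. The groups overlapped for both genes, with 1 parous tumour (KO parous nonmet 2) high and 1 nulliparous tumour (KO nulliparous nonmet 2) low.

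KO parous nonmet 2 was the highest parous tumour for the other 3 genes as well. Gbp5 read 5.80, 7.06 and 5.67 log2 in KO parous nonmet tumours, against 5.88, 5.69 and 5.85 log2 in KO nulliparous nonmet tumours. Irgm1 read 9.96, 11.31 and 10.09 log2 in the parous tumours, against 10.95, 9.57 and 10.21 log2 in the nulliparous ones. Iigp1 read 8.96, 11.72 and 9.52 log2 in the parous tumours, against 9.21, 7.96 and 10.37 log2 in the nulliparous ones. KO parous nonmet 2 lay above both others of its group for all 5 genes, by a median of 1.26 log2 over the higher of them.

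Parity differences in KO tumours were 0.21 (Irgm1) to 0.88 (Iigp1) on the log2 scale, with limma adjusted p of 1 for all 5. No gene was called (0% of 19938, 655 at an unadjusted p under 0.05). The intervals of 95% ran from -0.66 to 1.41 for Gbp3, from -0.44 to 1.03 for Gbp7 and from -1.02 to 2.79 for Iigp1, and so hold both a rise and a fall. Without KO parous nonmet 2 the median of the 5 differences was -0.12, against 0.37 with it, so the median changed sign without this 1 tumour. Iigp1 stayed above 0 in that fit, at 0.06.

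The parity differences in the 2 settings were set against each other in a test of the difference itself, KO nonmet minus WT met. It was 1.97 (SE 0.63) for Gbp3, 1.61 (SE 0.45) for Gbp7 and 3.48 (SE 1.17) for Iigp1 on the log2 scale. Gbp5 and Irgm1 gave 1.52 (SE 0.54) and 1.40 (SE 0.52). None of the 5 passed (limma adjusted p 0.337 to 0.418), although all 5 had an unadjusted p under 0.05, as did 1922 of all genes, of which 0% were called. Genotype and metastasis differ together in this test and cannot be told apart.

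Among parous mice with metastasis, KO and WT tumours did not differ detectably in any of the 5 genes. The 2 KO parous met samples read 9.73 and 9.47 log2 for Gbp7, and its KO minus WT difference was 0.01 (SE 0.36, limma adjusted p = 0.999). Gbp5 read 7.02 and 6.35 log2 in KO parous met tumours, both above the highest WT parous met tumour at 6.16 log2. Its difference of 0.75 (SE 0.43) had a limma adjusted p of 0.914, and 6.27% of all genes lay higher without overlap in this comparison. Gbp3, Irgm1 and Iigp1 overlapped between the groups, with differences of 0.30, 0.10 and 0.81. The interval of 95% for Gbp7 ran from -0.77 to 0.79, and for Iigp1 from -1.21 to 2.84. No gene was called (0%, with 1142 at an unadjusted p under 0.05).

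Metastasis within parous KO tumours was likewise not accompanied by a detectable change of the family. Differences of KO parous met minus KO parous nonmet were 0.00 for Gbp7, -0.10 for Irgm1, -0.03 for Iigp1, 0.37 for Gbp3 and 0.51 for Gbp5. Their limma adjusted p ran from 0.967 to 1, and no gene was called (0%, with 805 at an unadjusted p under 0.05). With 2 samples against 3 the intervals of 95% were wide, from -0.82 to 0.83 for Gbp7 and from -2.16 to 2.10 for Iigp1.

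KO nulliparous nonmet tumours lay below WT nulliparous met tumours in all 5 genes, without overlap. This comparison shares the WT nulliparous met tumours with the WT parity comparison, and genotype and metastasis cannot be told apart in it. Gbp7 read 9.56, 8.81 and 9.53 log2 in the KO nulliparous nonmet tumours, as given above, and the difference was -1.60 (SE 0.32, limma adjusted p = 0.0596). Gbp3 differed by -2.04 (SE 0.45, limma adjusted p = 0.076). The other 3 ran from -2.64 (Iigp1, SE 0.83) to -1.20 (Irgm1, SE 0.37), with adjusted p of 0.177 to 0.196. Thus 0 of 5 passed, against 0.155% of all genes called lower, and 6.8% of all genes lay lower without overlap. All 5 had an unadjusted p under 0.05, as did 2490 of all genes (12.5%). Leaving out KO parous nonmet 2, which is in neither compared group, brought 2 of the 5 past the threshold, and leaving out WT nulliparous met 2 brought 1. The count of all genes passing moved too. It was 49 in the main fit and 179 without WT nulliparous met 2, the most of any left-out sample.

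Between parous tumours of the same kinds (KO parous nonmet minus WT parous met) the differences were -0.07 (Gbp3) to 0.84 (Iigp1), with overlapping groups and limma adjusted p of 0.919 to 0.999. No gene was called (0%, with 1149 at an unadjusted p under 0.05). In the test over all 6 groups together (limma's moderated F test), none of the 5 passed, with adjusted p of 0.121 (Gbp7) to 0.361 (Gbp5), against 0.436% of all genes. All 5 had an unadjusted p under 0.05, as did 2474 of all genes (12.4%).

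**Figure D2:**
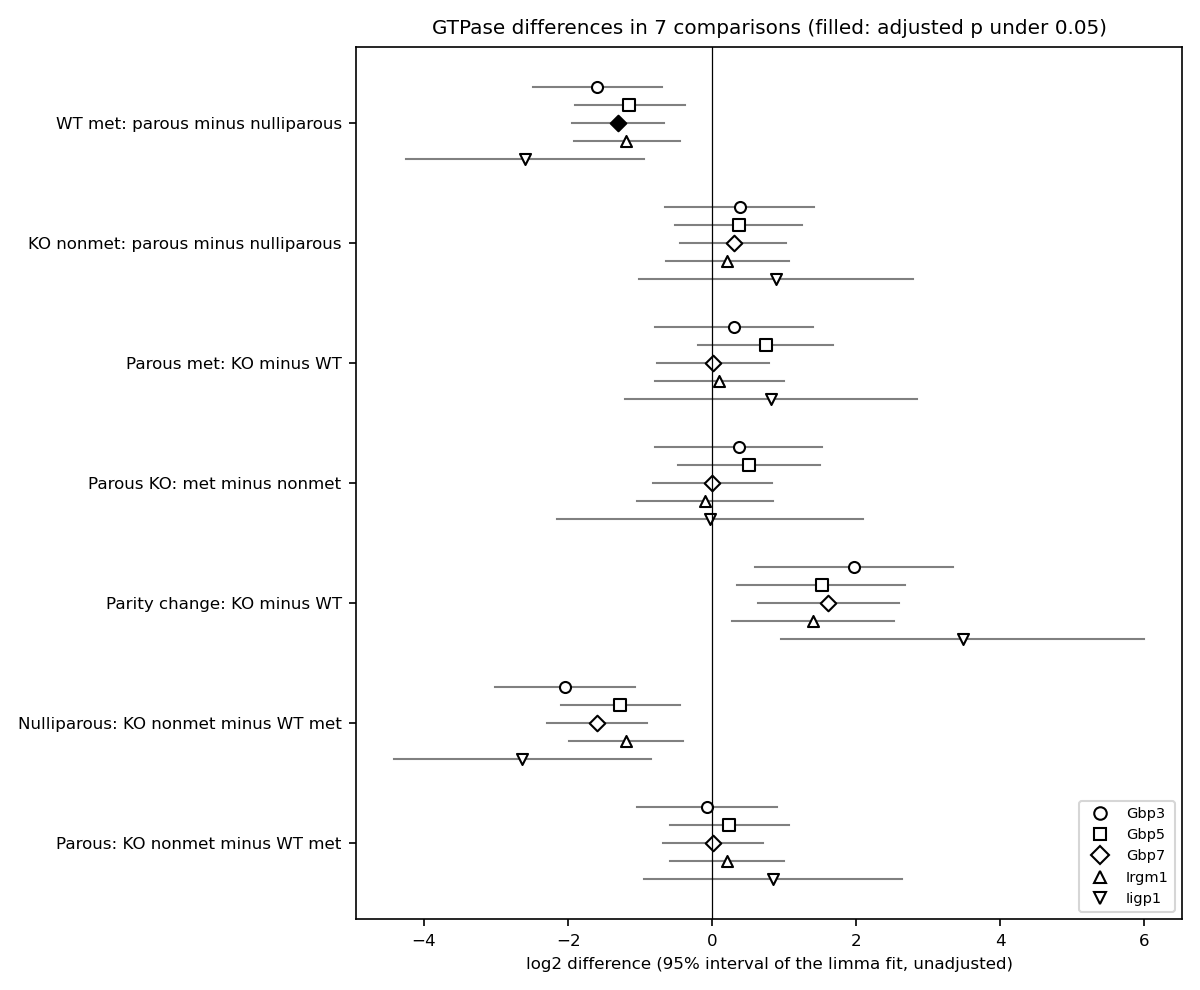
Log2 difference (horizontal axis) of each GTPase in the 7 comparisons, with the interval of 95% from the limma fit (lines, not adjusted for the number of genes). Filled marks passed an adjusted p of 0.05, which Gbp7 alone did, in WT met parous minus nulliparous.

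Across the 6 groups the order of the means was alike at both ends for the whole family. WT nulliparous met was highest for all 5 genes, the lone KO nulliparous met tumour came next (level with KO parous met for Gbp5, both at 6.69), and KO nulliparous nonmet was lowest. The lowest place was narrow against WT parous met for Irgm1 (10.25 against 10.26 log2) and Iigp1 (9.18 against 9.22 log2). Gbp7 averaged 9.60 ± 0.18 (SD, n = 2) in KO parous met, 9.60 ± 0.73 (n = 3) in KO parous nonmet, 9.30 ± 0.42 (n = 3) in KO nulliparous nonmet and 9.59 ± 0.16 (n = 4) in WT parous met, and these 4 groups did not differ beyond their spread. Its mean in WT nulliparous met was 10.90 ± 0.49 (n = 4). Iigp1 averaged 10.04 ± 1.29, 10.07 ± 1.46, 9.18 ± 1.20 and 9.22 ± 1.37 in the same 4 groups, and 11.82 ± 0.50 in WT nulliparous met.

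The lone KO nulliparous met tumour has no replicate, so its values are given with no test. It read 9.95 log2 for Gbp3, 6.69 for Gbp5, 10.19 for Gbp7, 10.98 for Irgm1 and 11.73 for Iigp1. For all 5 genes it lay above every WT parous met and every KO nulliparous nonmet tumour. For Gbp3, Gbp7 and Irgm1 it lay below all 4 WT nulliparous met tumours, and 1 KO parous nonmet tumour lay above it for each gene but Iigp1. It also held far more B cell signal than any other tumour: the B and plasma cell markers had a mean of 7.71 log2 in it, against 6.38 to 6.89 in the other 16 samples, and Ighm, the antibody mu heavy chain, read 9.77 log2, against means of 7.32 to 7.59 in the other groups (Ighm was named after its values were seen). The part of these cells in its GTPase values was not tested.

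The comparison with type I interferon genes used a list of 33 measured genes, among them Oas, Ifit and Mx family members. Parous WT tumours had lower values than nulliparous ones for 5 of 5 GTPases and for 33 of 33 type I genes; 1 of 5 GTPases and 20 of 33 type I genes passed, against 1.86% of all genes. The type I count was 3 to 13 of 33 when WT parous met 1, 3 or 4 or WT nulliparous met 1, 3 or 4 was left out, 9 with a replicate block, and 1 or 0 with the mean of leukocyte genes or of T and NK cell markers as a covariate. The median difference was -1.31 for the GTPases and -1.52 for the type I genes, with median SEs of 0.35 and 0.34. Among the type I genes that fell most were Oas2, which makes the activator of the antiviral RNase L (-2.85, SE 0.59), Ifit3b, of a family that binds foreign RNA (-2.43, SE 0.53), and Ddx60, a helicase of the RNA sensing pathway (-2.23, SE 0.53). Zbp1, a sensor of left-handed nucleic acid, differed by -2.17 (SE 0.43), and all 4 passed (limma adjusted p 0.0251 to 0.0444).

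In each sample the mean deviation from the average over samples was set side by side for the 2 sets. In WT parous met tumours it was -0.15, -0.18, -1.10 and -0.53 log2 for the GTPases, and -0.07, 0.08, -0.71 and -0.97 log2 for the type I genes. In WT nulliparous met tumours it was 1.39, 0.46, 1.47 and 0.99 log2 for the GTPases, and 1.51, 0.85, 1.11 and 1.24 log2 for the type I genes. The sets parted most in KO parous nonmet 2 (0.85 log2 for the GTPases, 0.35 log2 for the type I genes) and KO parous met 1 (-0.25 against -0.75 log2), where the GTPases stood higher. The GTPases also stood higher in WT parous met 4 (-0.53 against -0.97 log2) and WT nulliparous met 3 (1.47 against 1.11 log2). The sets parted the other way in WT parous met 3, in WT nulliparous met 2 and in the lone KO nulliparous met tumour (0.60 against 0.94 log2).

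**Figure D3:**
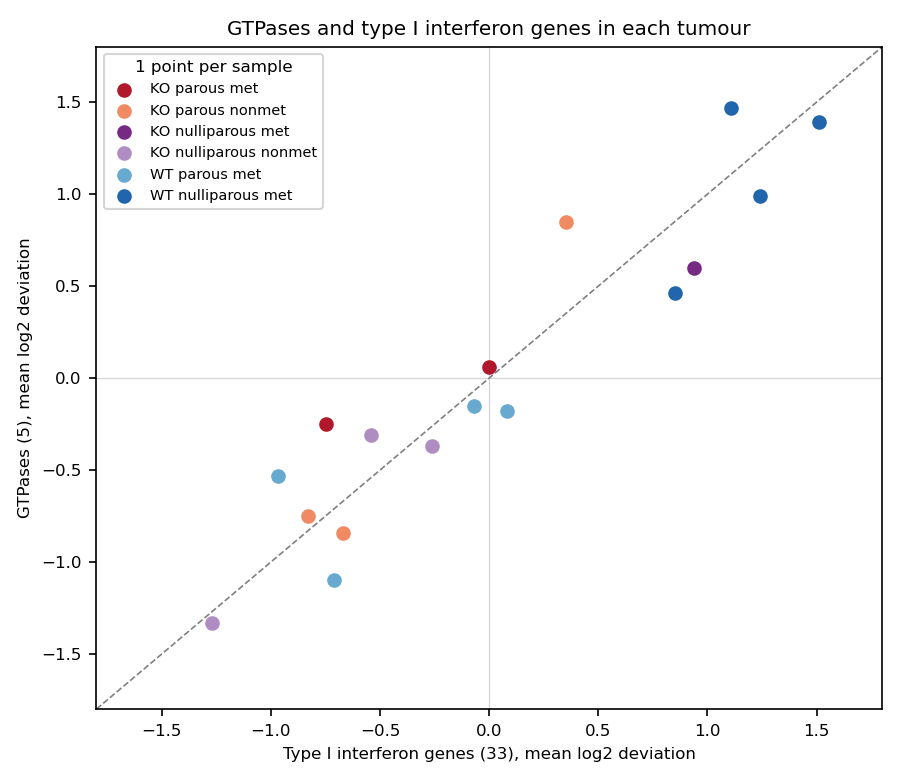
Mean log2 deviation of the 5 GTPases (vertical axis) against that of 33 type I interferon genes (horizontal axis) in each of 17 samples; the dashed line marks equal deviation. WT nulliparous met tumours lie at the upper right and KO parous nonmet 2 lies above the line at 0.85 against 0.35.

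Pearson's r between the 2 means was 0.94 over the 17 samples, which share arrays and group structure, so it is given as a description. With a list of 22 other genes known as interferon-gamma induced it was 0.97, and the 2 lists cannot be ranked by that difference. By gene, r with the type I mean was 0.93 for Gbp3, 0.90 for Irgm1, 0.91 for Iigp1, 0.89 for Gbp7 and 0.71 for Gbp5. With the group means removed, r with the type I mean was 0.82 for Gbp3, 0.38 for Gbp5, 0.62 for Gbp7, 0.78 for Irgm1 and 0.88 for Iigp1. With the 22 other interferon-gamma induced genes it was 0.94, 0.73, 0.94, 0.88 and 0.74 for the same genes in that order. With macrophage markers it was 0.89, 0.63, 0.75, 0.69 and 0.77, and with T and NK cell markers 0.22, 0.68, 0.45, 0.32 and 0.12. Whether these values differ between lists was not tested. In the same order r was 0.38, 0.76, 0.56, 0.38 and 0.05 with B and plasma cell markers. With the leukocyte genes r was 0.93, 0.77, 0.85, 0.77 and 0.77, so it was high for all 5. Lists of cells other than leukocytes also gave high values for some genes. With luminal epithelial markers r was 0.71, 0.39, 0.58, 0.79 and 0.65, and with endothelial markers 0.73, 0.24, 0.47, 0.50 and 0.73. These values include KO parous nonmet 2, and r without it was not computed. Gbp3 and Gbp7 were the most alike pair of the family (r = 0.962) and Gbp5 and Iigp1 the least (r = 0.697).

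In KO parity, the GTPases had a median difference of 0.37 and the type I genes 0.36. In the remaining comparisons the GTPase and type I medians were 0.30 and 0.06 (KO minus WT, parous met), 0.00 and 0.03 (metastasis in parous KO), 0.20 and 0.09 (KO parous nonmet minus WT parous met), and 1.61 and 1.84 (difference of the parity differences). No gene of either set passed in any of these. In KO nulliparous nonmet minus WT nulliparous met, 0 of 5 GTPases passed, with a median of -1.60, and 11 of 33 type I genes passed, all lower, with a median of -1.75. These type I calls were fragile: 0 of 33 passed without KO parous nonmet 1, KO nulliparous nonmet 2, WT nulliparous met 1 or WT nulliparous met 4, with either covariate, with a replicate block and in a fit of the compared groups alone. Leaving out other single samples gave 1 to 16 of 33, and leaving out KO parous nonmet 2 gave 23. Usp18, which restrains type I receptor signalling (-2.49, SE 0.45), and Mx2, an antiviral dynamin-like GTPase (-2.07, SE 0.35), fell most among them (limma adjusted p 0.0477 and 0.042). Tap1 and Psmb9, of antigen processing, Cxcl10, a chemokine, and the ligases Trim21 and Traf6 passed there too, all lower (log2 differences -1.91, -1.90, -0.88, -1.07 and -0.66). In the F test over all groups 0 of 5 GTPases and 5 of 33 type I genes passed. Whether the sets differ in how often they passed was not tested.

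The pathway that leads from interferon-gamma to the GTPases was described next. Ifng, which encodes the cytokine, had low signal: 6.85, 6.78, 6.72 and 6.80 log2 in WT parous met tumours, against 6.82, 6.87, 7.0 and 6.73 log2 in WT nulliparous met tumours. The groups overlapped, and the difference was -0.07 (SE 0.07, limma adjusted p = 0.707). Irf1, the factor that binds the ISRE of many GTPase genes, averaged 9.20 ± 0.22 log2 in WT parous met and 10.17 ± 0.40 log2 in WT nulliparous met (SD, n = 4 each), a difference of -0.96 (SE 0.24, limma adjusted p = 0.055). Irf8, a myeloid partner of Irf1, averaged 8.94 ± 0.14 and 9.34 ± 0.23 log2 in the same groups (-0.39, SE 0.15, limma adjusted p = 0.203).

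Of the 13 pathway genes measured, 2 passed, both lower in parous WT tumours, with a list median of -0.25. Jak1, the kinase that the receptors of both interferon types use, fell by 0.83 on the log2 scale (SE 0.15, limma adjusted p = 0.018). Ciita, the switch of MHC class II genes, fell by 0.66 (SE 0.15, limma adjusted p = 0.0387). The receptor chains Ifngr1 and Ifngr2 differed by -0.07 and 0.05, chosen for their place at the top of the pathway after their values were seen.

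Other genes known as interferon-gamma induced gave 6 of 22 passing, all lower in parous WT tumours, with a median of -0.73. Cxcl9, a chemokine that draws T cells, averaged 7.82 ± 0.48 log2 in WT parous met and 9.78 ± 0.81 log2 in WT nulliparous met (SD, n = 4 each). It fell by 1.96 on the log2 scale (SE 0.42, limma adjusted p = 0.0336). Tap1, a peptide transporter for MHC class I, and the immunoproteasome subunits Psmb8 and Psmb9 fell by 1.84, 1.78 and 1.77 (SEs 0.31, 0.41 and 0.30, limma adjusted p 0.0158, 0.042 and 0.0159).

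Among 11 further GTPases of these and related families, 10 had values below 0 and 1 passed, with a median of -0.86. That gene was Gm12250, which RefSeq also lists as Irgb10, an effector that breaks open bacteria in mouse cells. It averaged 7.68 ± 0.47 log2 in WT parous met and 9.78 ± 0.83 log2 in WT nulliparous met (SD, n = 4 each), and fell by 2.09 (SE 0.48, limma adjusted p = 0.0399). Gm4951, Gbp9 and Gbp4 had differences of -2.32, -1.58 and -1.59 and did not pass (limma adjusted p 0.0943, 0.0877 and 0.205). Irgq, Irgc1 and Atl3, relatives not known as interferon targets, gave -0.02, 0.06 and -0.01. These 6 genes were named after their values were seen.

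Machinery that works with the GTPases gave a mixed picture. Of 14 genes of the autophagy conjugation machinery and its ubiquitin ligases, which places GTPases on vacuoles, 3 passed and the list's median was -0.11. Map1lc3a, an LC3 protein of the autophagosome membrane, fell by 1.18 (SE 0.23, limma adjusted p = 0.022). Trim21 and Traf6, both ubiquitin ligases, fell by 0.98 (SE 0.18) and 0.61 (SE 0.11), with limma adjusted p of 0.018 and 0.0162. Of 11 inflammasome and pyroptosis genes, 0 passed (limma, 3 at an unadjusted p under 0.05) and the median was -0.21. Il18, a cytokine that inflammasomes activate, had the smallest p and a difference of 0.97 in the other direction (SE 0.24, limma adjusted p = 0.057).

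**Figure D4:**
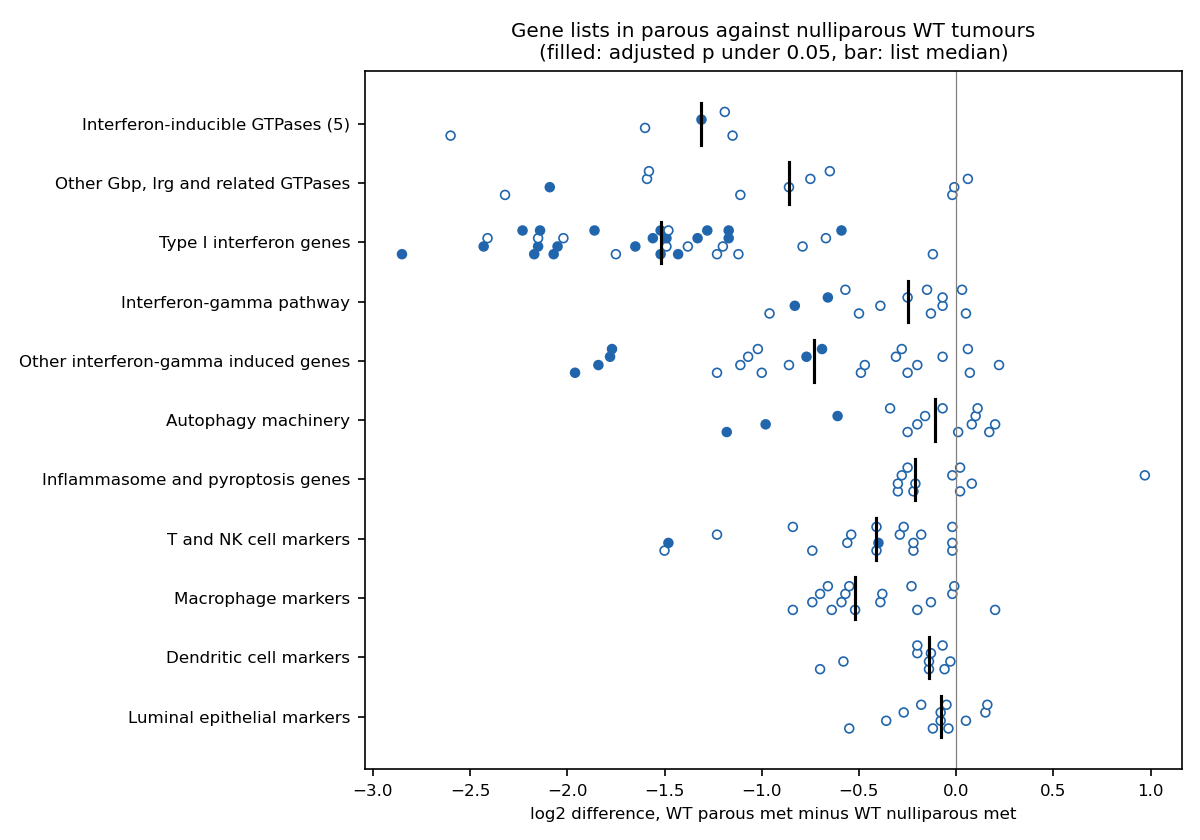
Log2 difference of WT parous met minus WT nulliparous met (horizontal axis) for every measured gene (points) of 11 lists, filled where the adjusted p is under 0.05, with the list's median as a bar. The GTPases have 1 of 5 filled and the type I interferon genes 20 of 33.

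Markers of other cells in the tumour were mostly lower in value in parous WT tumours, though few passed. T and NK cell markers had values below 0 in 18 of 18, with a median of -0.41, and 2 passed: Nkg7, a cytotoxic granule protein (-1.48, SE 0.34, limma adjusted p = 0.0385), and Ncr1, an NK cell receptor (-0.40, SE 0.09, limma adjusted p = 0.042). Their mean level was 6.34 to 6.48 log2 in WT parous met tumours and 6.52 to 7.52 log2 in WT nulliparous met tumours. Macrophage markers had 16 of 17 below 0, a median of -0.52 and mean levels of 8.77 to 9.67 against 9.29 to 9.66 log2, and none passed; Fcgr1, a receptor for IgG, had the smallest p (-0.70, SE 0.22, limma adjusted p = 0.123). A set of 12 general leukocyte genes had 12 below 0, a median of -0.55 and mean levels of 7.96 to 8.58 against 8.43 to 8.99 log2, and Fermt3, an integrin activator of blood cells, had the smallest p (-0.43, SE 0.11, limma adjusted p = 0.0698).

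Other cell types gave no marker past the threshold, with 1 exception. None of 10 dendritic, 9 B and plasma cell, 12 luminal, 10 endothelial, 10 fibroblast and 10 skeletal muscle genes passed (limma, 1, 2, 1, 0, 4 and 1 at an unadjusted p under 0.05), and their medians were -0.14, -0.07, -0.08, -0.22, -0.69 and -0.77. The smallest p in these lists belonged to Flt3 (-0.20), Cd79b (-0.31), Elf5 (-0.36), Tek (-0.57), Lum (-1.98) and Mb (-0.96). Of 9 adipocyte genes 1 passed, the lipase gene Lipe (-0.70, SE 0.14, limma adjusted p = 0.0274). Luminal markers had mean levels of 10.94 to 11.13 log2 in WT parous met and 10.98 to 11.27 log2 in WT nulliparous met.

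With the mean of the leukocyte genes as a covariate, the median WT parity difference was -0.63 for the GTPases and -0.90 for the type I genes, and none of the GTPases passed. With the mean of the T and NK cell markers in its place, a choice made after seeing the data, the medians were -0.85 and -1.41. All 5 GTPases stayed below 0 in both fits. Over the 17 samples the GTPase mean had an r of 0.91 with the leukocyte mean, 0.83 with the macrophage mean and 0.74 with the T and NK mean. In KO parous nonmet 2, leukocyte, macrophage and GTPase values were all high within the group. Of the T and NK markers, 4 of 18 (22.2%) lay above both others, against 27.8% of all genes.

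Likeness to the mean of the 5 GTPases over the 17 samples was ranked among genes without provisional names. This left out relatives such as Gm12250 and Gm4951. The most alike of the ranked genes were Gbp9 (r = 0.98), Herc6 (0.97), Parp14 (0.963), Dtx3l (0.958) and Psmb8 (0.949). Gbp9 is a further guanylate-binding protein, and Herc6 is an interferon-induced ligase that attaches Isg15 in mice. Parp14 and Dtx3l, an ADP-ribosyltransferase and a ubiquitin ligase, lie on chromosome 16, and Psmb8 lies on chromosome 17. Gbp9 averaged 8.29 ± 0.35 log2 in WT parous met and 9.86 ± 0.61 log2 in WT nulliparous met (SD, n = 4 each), and Herc6 averaged 9.68 ± 0.32 and 10.91 ± 0.37 log2. The measured GTPases lie on chromosomes 3, 11 and 18, so these likenesses cross chromosomes.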

How the data were processed

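RNA of 18 mammary tumours was read on single-colour Affymetrix arrays. The authors deposited log2 expression values of 35556 probe sets, made with RMA and oligo per the submitters' processing notes (no version stated). RMA subtracts background, forces arrays to the same distribution, which hides shifts common to all genes, and combines the probes of a set. Precision is limited by the number of arrays, which have no read depth.

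Of the probe sets 21789 named 1 gene in GEO's platform annotation, 1621 several and 12146 none; those with 1 gene were used, the highest mean per gene, which left 19938 genes (19855 matched to RefSeq of GRCm38.p6 for names, chromosomes and promoters). Replicates 2 and 3 of KO parous met were averaged, since they differed far less than any other pair. The labels call the arrays biological replicates.

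Tests were limma 3.58.1 in R 4.3.3 (lmFit, eBayes, 2-sided) on 6 group means over 17 samples with 11 residual degrees of freedom, and Benjamini-Hochberg adjustment over all genes. The members, the gene lists and the tests were chosen with earlier results of these data known. Genes named were the 8 members, Snai2 and Erbb2, the pathway genes Ifng, Irf1 and Irf8, up to 4 of each list past the threshold with the largest change (the smallest p where none passed), and the 5 most like the members' mean; others are said to have been named after their values were seen. Same-numbered replicates of different groups had r of -0.37 to 0.429 (median 0.008, 27 pairs). Different-numbered ones had -0.429 to 0.514 (median 0.006, 74 pairs). The numbers were therefore not used to pair samples in the main fit, although this check cannot exclude a pairing. The script was tested on simulated data. Alternatives were left-out replicates, all 18 arrays, the compared groups alone, array weights, a robust trend, quantile normalization again, the mean of probe sets, the dimmest 40% left out, a replicate block and the 2 covariates.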

Additional observations from a re-analysis of the deposited data

Results flagged for a closer look

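In 44 sets of values from the groups of 4 samples, Dixon's test at its 95% critical value picked out 2, about what chance gives (1 in 20). The mean of the skeletal muscle genes deviated by 0.33 log2 in WT parous met 2, far from the other 3 tumours of its group. The mean of the leukocyte genes deviated by 0.01 log2 in WT nulliparous met 2, below the other 3 tumours of that group; the GTPase mean was also lowest of the 4 there, at 0.46 log2, and was not picked out.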

How the results depend on the processing

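With 4 or fewer samples a group, the count of genes past the threshold moved with the fit. In WT parity the 478 genes and 1 GTPase became 878 and 3 (compared groups only), 1718 and 5 (array weights), and 19 and 0 (leukocyte covariate). They became 212 and 0 with the replicate block, and 54 and 0 with the T and NK covariate, added after seeing the data. The GTPases were 2 with all 18 arrays kept apart and with the dimmest 40% of genes left out. The fit without the dimmest genes drops Gbp5 in every comparison. With the block, Gbp7 had an adjusted p of 0.0879, and no other GTPase call changed. Leaving out 1 replicate gave 57 to 770 genes and 0 to 3 GTPases.

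For KO nulliparous nonmet against WT nulliparous met, 49 genes and 0 GTPases became 128 and 2 (18 arrays), 215 and 2 (array weights), 1 gene (compared groups only), 0 genes (either covariate, replicate block), and 1 GTPase with the dimmest genes left out; left-out replicates gave 0 to 179 genes and 0 to 2 GTPases. The F test's 87 genes became 200 (18 arrays), 50 (dimmest left out), 731 with 2 GTPases (array weights), 10 (leukocyte covariate), 16 (T and NK covariate) and 0 (replicate block), with 21 to 204 genes and 0 to 2 GTPases over left-out replicates. KO parous nonmet against WT parous met gave 1 gene with array weights, against 0. Left-out replicates gave 0 to 2 genes in KO parity, 0 to 17 in genotype, 0 to 5 in metastasis, 0 to 8 in the difference of parity differences and 0 to 2 in KO parous nonmet against WT. The causes were not tested.

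All WT parity differences of the 5 GTPases stayed below 0 in every alternative (Gbp7 from -1.53 to -0.68, Iigp1 from -3.02 to -1.11), and Gbp7 passed in 17 of 27. Over all comparisons 909 of 938 GTPase results kept their side of the threshold, 19 passed newly and 10 no longer passed; values that passed in no fit changed sign in some, as in KO parity, where Gbp3 ran from -0.26 to 0.73. Quantile normalization again moved no median of all genes by over 0.1.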
